A study of Mus musculus with 40 samples.

Results

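Capg, Krt8 and Tubb2a are genes of the cell skeleton, measured here in the mouse duodenum, where the small intestine begins. They were taken from the count table by symbol, as the rows listed as CAPG, KRT8 and TUBB2A, and each had 1 probe. They are 3 of 2756 gene symbols, or 3 of 3045 probes, and all 3 passed the filter on low counts that left 2541 probes. They were chosen on measured values, since each was called higher in every exposed group than in control in an earlier analysis of the same counts. Their differences from control are therefore given as a description, with a standard error and whether the probe was called, but with no p, and neither these calls nor their loss under another setting is evidence for a change. Which cells of the tissue made the transcripts was not tested.

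The RNA came from formalin-fixed, paraffin-embedded duodenum of male, wild-type B6C3F1 mice, a hybrid laboratory strain, and was read with TempO-Seq, in which pairs of probes ligated on a transcript are amplified and sequenced. The control group had 5 libraries and received no test compound per its label. The 5 exposed groups had 7 libraries each, after 28 days of exposure. In one, drinking water held 180 ppm of hexavalent chromium, Cr(VI). In the others the diet held captan, at a lower dose of 6000 or a higher dose of 12000 ppm, or folpet, at 6000 and 16000 ppm. Captan and folpet are fungicides that carry a trichloromethylthio group on an imide nitrogen. The labels do not say that each library came from a separate mouse, so p-values here speak of the spread among libraries only, and some of it may be technical.

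The cell skeleton is built from actin filaments, intermediate filaments and microtubules. Capg is a gelsolin-family protein that caps the fast-growing end of actin filaments without cutting them, and is known from macrophages as well as from epithelia. Krt8 is the type II keratin of simple epithelia, where it pairs with type I keratins such as Krt18 and Krt19 into filaments that lie beneath the brush border of enterocytes. Tubb2a is a beta tubulin isotype, which joins alpha tubulin into the dimers that build microtubules.

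The 300 bases from 250 before to 50 after each gene's start are shown because all 3 genes were higher in every exposed group. They are RefSeq's sequences of build GRCm38.p6, read 5′ to 3′ on the gene's own strand, with 3 of 3 genes matched. The windows are chr6:72549397-72549696 on the plus strand for Capg, at a start inside the span of the gene, chr15:102004293-102004592 on the minus strand for Krt8, and chr13:34077959-34078258 on the minus strand for Tubb2a. Capitals mark the motifs that were found.
Capg: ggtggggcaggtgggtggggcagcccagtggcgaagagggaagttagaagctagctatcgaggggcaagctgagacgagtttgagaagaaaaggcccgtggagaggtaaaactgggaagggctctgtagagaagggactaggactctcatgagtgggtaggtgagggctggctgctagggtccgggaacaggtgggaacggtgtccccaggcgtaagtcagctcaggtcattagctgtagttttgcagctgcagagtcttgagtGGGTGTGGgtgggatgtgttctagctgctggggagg
Krt8: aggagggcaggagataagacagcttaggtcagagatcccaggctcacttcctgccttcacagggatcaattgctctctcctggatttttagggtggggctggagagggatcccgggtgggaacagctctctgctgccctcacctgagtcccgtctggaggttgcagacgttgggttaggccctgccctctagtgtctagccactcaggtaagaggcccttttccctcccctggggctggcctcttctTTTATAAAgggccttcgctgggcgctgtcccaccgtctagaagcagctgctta
Tubb2a: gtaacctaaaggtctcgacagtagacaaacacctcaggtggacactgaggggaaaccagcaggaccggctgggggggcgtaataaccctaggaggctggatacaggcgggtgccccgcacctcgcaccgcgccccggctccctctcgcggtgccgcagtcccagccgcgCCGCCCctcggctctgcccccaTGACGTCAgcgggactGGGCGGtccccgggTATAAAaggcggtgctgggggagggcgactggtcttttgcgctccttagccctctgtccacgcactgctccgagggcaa

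Motifs were searched as exact letters on both strands, and positions are counted from the annotated start at 1, with no position 0. The Tubb2a window held a TATA box, TATAAA, from position -29, a cAMP response element, TGACGTCA, from position -59, and the GC box GGGCGG from position -43 and, on the other strand, from position -81. The Krt8 window held TATAAA on both strands, in overlapping letters across the annotated start. The Capg window held the GT box GGGTGTGG, a form bound by Krüppel-like factors, downstream of the start. Of 32851 RefSeq promoter windows of the same length, 13.6% held TATAAA, 1.79% TGACGTCA, 35.7% GGGCGG and 3.56% GGGTGTGG. None of the 3 windows held the AP-1 site TGANTCA (7.81% of all windows), CCAAT (37.4%), the NRF2 core TGACNNNGC (12.4%) or the HIF core ACGTG (19.6%). No motif was shared by all 3 windows. A match is a description of the letters and not a measured site.

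Total counts ran from 1763440 to 7904819 per library. Transcripts of pancreatic acinar cells took from 1.22% to 82.1% of the counts of a library, and over 50% in 7 libraries, namely control 4 and 5, 4 of the Cr(VI) libraries and 1 of the captan 12000 ppm libraries. Control 5 had the fewest probes above 0, 1460 against up to 2322 in the other controls. Levels below are in CPM, the usual depth-scaled count unit, on library sizes scaled by edgeR's trimmed mean of M values (TMM), which lessens the weight of these transcripts. In bulk tissue, fewer cells of a type and less RNA per cell cannot be told apart. CPM is not divided by transcript length, so levels are compared between groups and not between genes.

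Capg, the actin capping gene, was low in control and higher in every exposed group. In controls 1 to 5 it had 145, 0, 126, 92 and 20 counts, or 27.9, 0, 24.5, 26.7 and 18.01 CPM. The count of 0 in control 2 allows up to 0.791 CPM (3 counts), for counting error only. Apart from that library the controls lay close together. The Cr(VI) libraries ran from 79.9 CPM to 364 CPM with a median of 118 CPM, and 6 of 7 lay between 79.9 CPM and 120 CPM. Captan at 6000 ppm ran from 10.6 CPM to 219 CPM with a median of 101 CPM, and captan at 12000 ppm from 69.3 CPM to 143 CPM with a median of 104 CPM. Folpet at 6000 ppm ran from 53.4 CPM to 153 CPM with a median of 116 CPM, and folpet at 16000 ppm from 59.8 CPM to 223 CPM with a median of 171 CPM. Of 35 exposed libraries, 34 lay above the highest control. The exception was captan 6000 ppm replicate 2, the shallowest library, with 22 counts.

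The Capg means were 19.4 ± 11.5 CPM in control (SD, n = 5), 147 ± 96.6 CPM after Cr(VI), 99.5 ± 64.4 CPM and 104 ± 23.2 CPM at the lower and higher captan doses, and 113 ± 32.0 CPM and 159 ± 55.6 CPM at the lower and higher folpet doses (n = 7 each). The fitted log2 fold changes against control, ± standard error, were 2.91 ± 0.57 with Cr(VI), 2.35 ± 0.56 and 2.41 ± 0.56 with captan, and 2.53 ± 0.56 and 3.03 ± 0.58 for folpet. These are 5.11-fold to 8.16-fold. In order of mean level the groups ran from control through captan 6000, captan 12000, folpet 6000 and Cr(VI) to folpet 16000 ppm. Each neighbouring pair of exposed groups differed by less than the larger SD of the pair, the widest gap being 33.5 CPM between folpet 6000 ppm and Cr(VI) with an SD of 96.6 CPM. Without Cr(VI) replicate 6 the Cr(VI) log2 fold change was 2.50. Without control 2 the 5 log2 fold changes were lowest for captan 6000 ppm, at 2.05, and all 5 were called.

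Krt8, the keratin of simple epithelia, was abundant in every library and moved by less than Capg. In controls 1 to 5 it had 2934, 3903, 4030, 4203 and 2706 CPM. The Cr(VI) libraries ran from 4424 CPM to 6226 CPM with a median of 5258 CPM. The captan libraries ran from 4182 CPM to 5972 CPM at 6000 ppm, with a median of 5108 CPM, and from 4323 CPM to 6391 CPM at 12000 ppm, with a median of 5198 CPM. The folpet libraries ran from 5026 CPM to 6847 CPM at 6000 ppm, with a median of 5462 CPM, and from 5318 CPM to 7594 CPM at 16000 ppm, with a median of 6556 CPM. As for Capg, 34 of 35 exposed libraries lay above the highest control, and captan 6000 ppm replicate 2 again did not.

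The Krt8 means were 3555 ± 684 CPM in control (SD, n = 5), 5332 ± 642 CPM after Cr(VI), 5163 ± 554 CPM and 5121 ± 728 CPM at the lower and higher captan doses, and 5709 ± 771 CPM and 6506 ± 749 CPM at the lower and higher folpet doses (n = 7 each). The log2 fold changes against control were 0.58 ± 0.14 with Cr(VI), 0.54 ± 0.14 and 0.53 ± 0.14 with captan, and 0.68 ± 0.14 and 0.87 ± 0.14 for folpet, or 1.44-fold to 1.83-fold. Only the step from folpet 6000 to folpet 16000 ppm, 796.9 CPM, was wider than the larger SD of its pair, 770.6 CPM, among neighbouring exposed groups. Scaled by library totals alone, the Krt8 log2 fold changes ran from 0.25 for Cr(VI) to 0.95 for folpet 6000 ppm, and none was called. The median log2 fold change of all probes then moved by -0.27 for Cr(VI) and by 0.44 for captan 12000 ppm. Without control 5, Krt8 was not called in the captan comparisons, at 0.45 and 0.44.

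Krt18, a type I partner of Krt8, was not called in any comparison with control. Its log2 fold changes ran from -0.04 for captan 6000 ppm to 0.39 for Cr(VI), with adjusted p from 0.190 to 0.964 by edgeR's quasi-likelihood test. Within a library, the log2 ratio of Krt8 to Krt18 counts was 3.31 ± 0.68 in control (SD, n = 5), between 2.52 and 4.09, and its means in the exposed groups ran from 3.50 after Cr(VI) to 3.87 at captan 6000 ppm. The exposed libraries ran from 3.15 to 4.30, so they overlapped control, and the ratio was not tested. Probes differ in efficiency, so the ratio does not give the relative number of transcripts.

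Tubb2a, the beta tubulin, varied widely among libraries. In controls 1 to 5 it had 528, 182, 434, 64 and 0 counts, or 102, 48.0, 84.4, 18.6 and 0 CPM. The 0 was in control 5, where it allows up to 2.70 CPM. The Cr(VI) libraries ran from 114 CPM to 254 CPM with a median of 210 CPM, all above the highest control. Captan at 6000 ppm ran from 68.0 CPM to 397 CPM with a median of 178 CPM, and captan at 12000 ppm from 121 CPM to 399 CPM with a median of 318 CPM. Folpet at 6000 ppm ran from 92.7 CPM to 335 CPM with a median of 166 CPM, and folpet at 16000 ppm from 86.6 CPM to 447 CPM with a median of 171 CPM. Of 35 exposed libraries, 29 lay above the highest control. The 6 that overlapped control were 1 at captan 6000 ppm, 2 at folpet 6000 ppm and 3 at folpet 16000 ppm.

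The Tubb2a means were 50.5 ± 42.9 CPM in control (SD, n = 5), 198 ± 49.8 CPM after Cr(VI), 210 ± 114 CPM and 271 ± 101 CPM at the lower and higher captan doses, and 195 ± 96.9 CPM and 194 ± 129 CPM at the lower and higher folpet doses (n = 7 each). The log2 fold changes against control were 1.94 ± 0.55 with Cr(VI), 2.02 ± 0.56 and 2.39 ± 0.56 with captan, and 1.91 ± 0.55 and 1.90 ± 0.55 for folpet, or 3.74-fold to 5.23-fold. Neighbouring exposed groups in the order of means differed by 1.11 CPM to 61.6 CPM, less than the larger SD of each pair. Leaving out single libraries ended 13 of 60 Tubb2a calls, against 2 of 60 for Krt8 and 0 of 60 for Capg. The Tubb2a call in 4 of 5 comparisons was lost without control 4, in 2 without control 2, and in 1 without control 5. Single exposed libraries also decided a call: Cr(VI) replicate 1 and replicate 6 for Cr(VI), captan 6000 ppm replicate 4, folpet 6000 ppm replicate 3 and replicate 6, and folpet 16000 ppm replicate 6. Without control 2 and control 5 together, its log2 fold changes were 1.5 to 2.0 and 1 of 5 was called. RefSeq lists pseudogenes for Krt8 and Tubb2a, and where the probes lie was not known here, so a near-identical copy such as Tubb2b could add to a count.

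**Figure D1:**
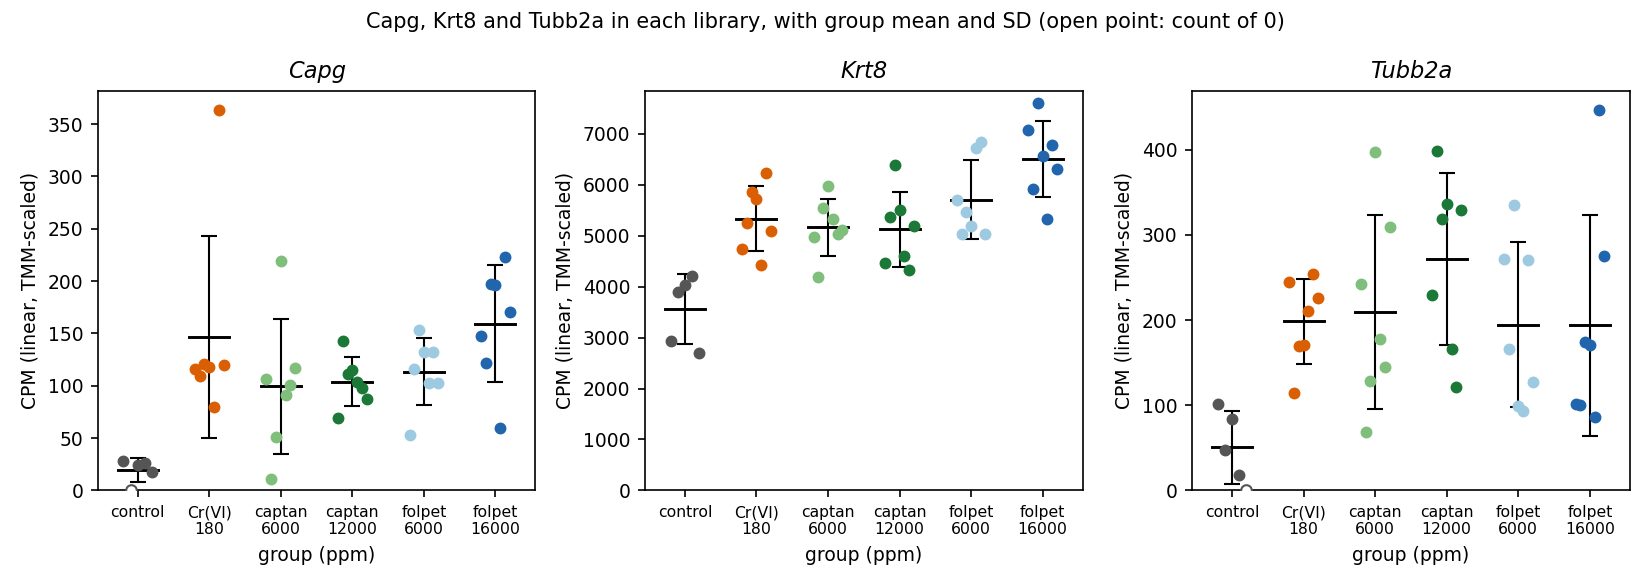
CPM of Capg, Krt8 and Tubb2a in each of 40 libraries (points) by group, with the mean and SD (bars); open points are counts of 0. For Capg and Krt8, 34 of 35 exposed libraries lie above the highest control, and for Tubb2a 29 do.

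All 15 differences of these genes from control were called by edgeR at an adjusted p under 0.05, which repeats the choice of the genes and supports nothing. Over all 2541 probes, 5.94% were called for Cr(VI), 5.16% and 6.18% for the lower and higher captan doses, and 6.22% and 12.6% for the lower and higher folpet doses. Called higher in all 5 comparisons were 35 probes, 1.38%, these 3 among them. The comparisons share the 5 control libraries, so the 5 fold changes of a gene are not independent. The acinar share moved with some of the groups, with medians of 41.3% in control, 53.2% after Cr(VI), 26.3% and 2.31% in the captan groups and 16.3% and 26.2% in the folpet groups. With that share in the fit, 10 of 15 were called, and all 15 stayed above 0. Without the 7 libraries over 50% acinar, 5 of 15 were called, 3 for Capg, 2 for Krt8 and 0 for Tubb2a. The log2 fold changes were then 0.52 to 0.87 for Krt8, 2.54 to 3.44 for Capg and 1.34 to 1.78 for Tubb2a.

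Across the 40 libraries, the deviations of Tubb2a from its group means went with the number of probes above 0 (r = 0.74) and with the acinar share (r = -0.47). For Capg these were 0.21 and -0.03, and for Krt8 0.08 and 0.00. The points share library depth and the TMM scaling, and control 5 had the lowest Tubb2a value, the fewest probes above 0 and an acinar share of 77.6%. The part of either measure in the Tubb2a differences was not tested.

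**Figure D2:**
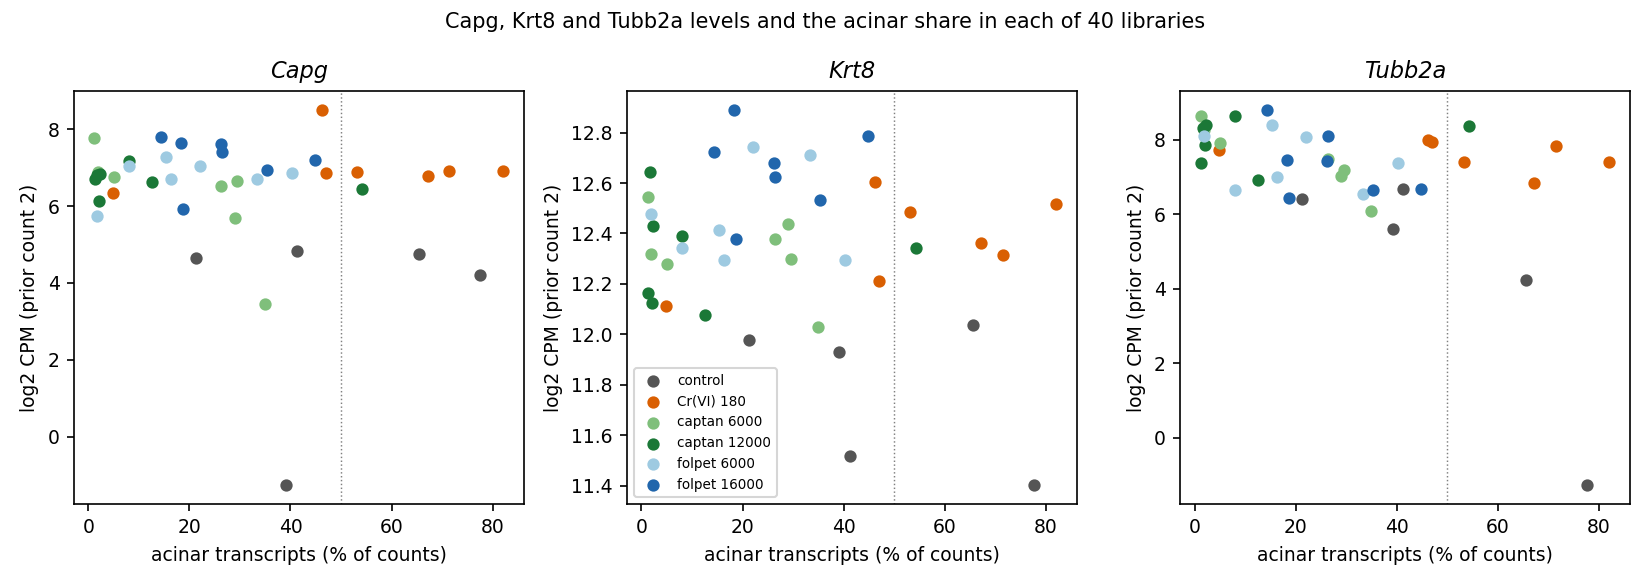
Log2 CPM of each gene (prior count 2) against the share of counts in 18 acinar probes, for 40 libraries coloured by group; the dotted line is 50%. The lowest Tubb2a point is control 5 and the lowest Capg point is control 2, both counts of 0.

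Differences among the exposed groups were tested in 6 comparisons, which use the exposed libraries of the comparisons that chose the genes. By edgeR's quasi-likelihood test with Benjamini-Hochberg adjustment, 0 of 18 differences passed, with 2 at an unadjusted p under 0.05, and DESeq2 and limma-voom also called 0. The background over all probes was 0% for the captan dose step (148 at an unadjusted p under 0.05 by edgeR, 1 called by DESeq2, 0 by limma-voom), 1.73% for the folpet dose step, 0.157% for captan against folpet at 6000 ppm, 0% for captan 12000 against folpet 16000 ppm (193, 16 and 4 by the same counts), 4.64% for Cr(VI) against captan 12000 ppm and 7.32% for Cr(VI) against folpet 16000 ppm.

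The dose steps gave these genes little difference, with wide intervals. From captan 6000 to 12000 ppm, the log2 difference was 0.06 for Capg (95% interval -0.87 to 0.99), -0.01 for Krt8 (-0.27 to 0.24) and 0.37 for Tubb2a (-0.59 to 1.32). From folpet 6000 to 16000 ppm, it was 0.49 for Capg (-0.44 to 1.43), 0.19 for Krt8 (-0.07 to 0.44) and -0.01 for Tubb2a (-0.96 to 0.95). Between the fungicides at 6000 ppm, captan minus folpet was -0.18 for Capg (-1.11 to 0.75), -0.14 for Krt8 (-0.40 to 0.11) and 0.11 for Tubb2a (-0.85 to 1.06). The Krt8 intervals reached no further than 0.44 from 0 on the log2 scale, whereas those of Capg reached 1.43 and those of Tubb2a 1.32.

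At the higher doses, which differ, Krt8 was at 5121 ± 728 CPM with captan and 6506 ± 749 CPM with folpet (SD, n = 7), a log2 difference of -0.35 for captan minus folpet (-0.60 to -0.09, adjusted p = 0.332 by edgeR). Of 7 captan libraries, 4 lay below the lowest folpet library. Cr(VI) minus folpet 16000 ppm was -0.29 for Krt8 (-0.54 to -0.03, adjusted p = 0.175), again with 4 of 7 libraries below. Neither passed the test. Captan 12000 minus folpet 16000 ppm was -0.62 for Capg (-1.55 to 0.32) and 0.49 for Tubb2a (-0.47 to 1.44). Cr(VI) minus folpet 16000 ppm was -0.12 for Capg (-1.05 to 0.81) and 0.04 for Tubb2a (-0.92 to 0.99). None of these passed either. Against captan 12000 ppm, Cr(VI) was 0.06 higher on the log2 scale for Krt8, 0.50 higher for Capg and 0.45 lower for Tubb2a, none of which passed.

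**Figure D3:**
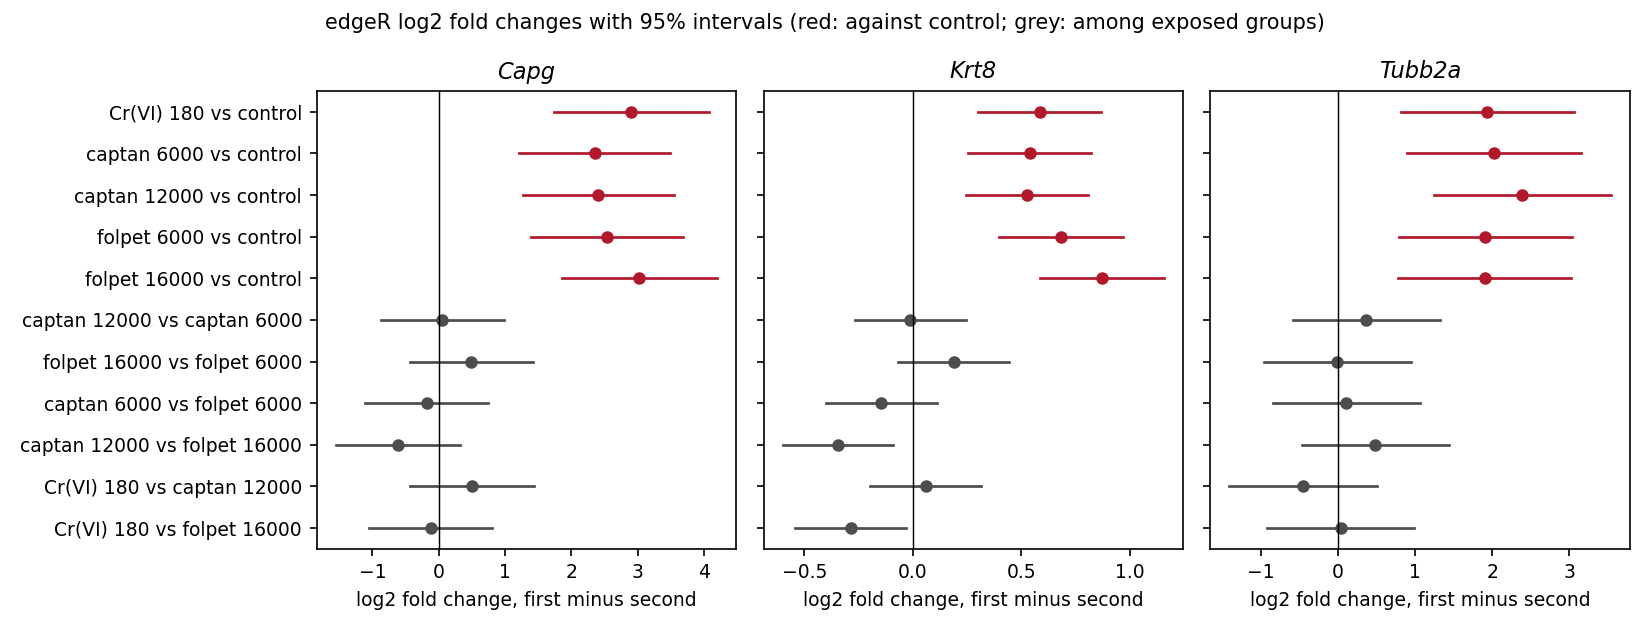
Log2 fold changes from edgeR with 95% intervals for 11 comparisons, red against control and grey among exposed groups. The red intervals show the differences on which the genes were chosen and are a description; of the 18 grey intervals, 16 cross 0.

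Of 194 other cytoskeleton genes listed, 53 were measured and 52 were tested, on 59 probes. Among the lists were those for actin turnover, actin crosslinkers and membrane links, intermediate filaments, microtubules and junctions. For Cr(VI), 2 probes rose and 2 fell, or 6.78% of the 59, against 5.94% of all probes. For captan, 4 rose and 1 fell at 6000 ppm (8.47% against 5.16%), and 5 rose and 0 fell at 12000 ppm (8.47% against 6.18%). For folpet, 8 rose and 2 fell at 6000 ppm (16.9% against 6.22%), and 9 rose and 2 fell at 16000 ppm (18.6% against 12.6%). The Cr(VI) and captan 12000 ppm shares lay near that background. Over all probes, 75 rose and 76 fell for Cr(VI), 96 and 35 at captan 6000 ppm, and 118 and 39 at captan 12000 ppm. At folpet 6000 ppm 117 rose and 41 fell, and at folpet 16000 ppm 201 rose and 119 fell. Rises thus outnumbered falls over all probes too in each fungicide group. The median log2 fold change of the 59 probes lay between 0.05 and 0.12 in the 5 comparisons, against -0.05 to 0.01 over all probes. None of the 59 was called in all 5 comparisons. Outside the lists, and picked out after their values were seen, 2 genes linked to the cell skeleton were called higher in all 5 comparisons. Wipf2, which binds the actin regulator WASP, rose by 0.54 to 0.69, and Hook2, a microtubule linker, by 0.48 to 0.998.

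Among actin regulators, Pfn1, the profilin that delivers actin monomers to growing ends, has 2 probes. The probe with more counts rose at captan 12000 ppm by 0.53, at folpet 6000 ppm by 0.51 and at folpet 16000 ppm by 0.70 (adjusted p = 0.000499 by edgeR). It was 0.29 for Cr(VI) and 0.44 for captan 6000 ppm, where it did not pass. The other Pfn1 probe rose at captan 6000 ppm by 0.48, at captan 12000 ppm by 0.49 and at folpet 16000 ppm by 0.50, and did not pass at folpet 6000 ppm, at 0.40, or for Cr(VI), at 0.39. Slc9a3r1, a scaffold that ties membrane proteins to the brush border through ezrin, rose in all 4 fungicide groups, by 0.58 to 0.67, and was 0.30 for Cr(VI) without passing. S100a11, a calcium-binding protein, rose at both folpet doses, by 1.06 and 0.76. Cnn3, an actin-binding calponin, fell by 0.54 after Cr(VI), by 0.49 at captan 6000 ppm and by 0.43 at folpet 6000 ppm. Its log2 fold change was -0.17 at captan 12000 ppm and -0.33 at folpet 16000 ppm, where it did not pass.

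Among intermediate filaments and their anchors, Krt19, a keratin of simple epithelia, rose at folpet 16000 ppm by 0.68 (adjusted p = 0.00233 by edgeR), and was lower after Cr(VI) than at folpet 16000 ppm by 0.74 (adjusted p = 0.000422). Krt7, a keratin of ducts, fell at both folpet doses, from 57.2 CPM in control to 18.5 CPM and 17.5 CPM. Without passing, its log2 fold change was -1.09 after Cr(VI), -1.46 at captan 6000 ppm and -1.30 at captan 12000 ppm. The desmosomal cadherin Dsc2 rose after Cr(VI) by 0.58 and at folpet 6000 ppm by 0.45. Of the 4 keratins measured, Krt8 was the one called higher in all 5 comparisons, which the choice of members fixes, while Krt7 and Krt19 were called in opposite directions at folpet 16000 ppm.

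Among tubulins, Tubb2a was called higher in all 5 comparisons, which the choice of members fixes. No other probe of that list was, and only 1.38% of all tested probes were. Tuba1b, an alpha tubulin, fell after Cr(VI) by 0.75 (adjusted p = 0.00305 by edgeR) and was lower there than at captan 12000 ppm by 0.92 and than at folpet 16000 ppm by 0.81. Tubb2c, another beta tubulin, was lower after Cr(VI) than at captan 12000 ppm by 0.82. Tuba4a, an alpha tubulin, rose at captan 12000 ppm and at both folpet doses, by 0.55 to 0.63. Tubb6 fell at folpet 16000 ppm, from 39.3 CPM to 13.9 CPM. Without passing, it was also lower at captan 6000 ppm (14.0 CPM), captan 12000 ppm (19.3 CPM) and folpet 6000 ppm (17.5 CPM). After Cr(VI) it was at 38.7 CPM.

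Among junction and signalling genes, Ctnnd1, the catenin that steadies cadherins, has 2 probes. The probe with more counts rose in all groups but captan 12000 ppm, by 0.52 to 0.58, and was 0.37 there without passing. The other, with a mean of 3.04 CPM and 17 counts of 0, was lower in all 5 groups without passing. Its log2 fold changes ran from -3.04 to -1.99. The small GTPase Rac1 rose at both folpet doses, by 0.55 and 0.57. The kinase Pak4 rose at captan 6000 ppm by 0.50 and at folpet 16000 ppm by 0.53. The scaffold Iqgap1 rose at captan 12000 and folpet 6000 ppm, by 0.77 and 0.75. In the remaining comparisons the probes that rose had the same sign and did not pass. These counts moved with single libraries. Without control 5, 0 were called at captan 12000 ppm, 2 at captan 6000 ppm and 4 at folpet 6000 ppm, and without control 3 or control 4, 8 at captan 6000 ppm. Leaving out captan 6000 ppm replicate 7 gave 3 there, captan 12000 ppm replicate 3 gave 1 there, and folpet 6000 ppm replicate 5 or replicate 6 gave 6 or 5 there.

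**Figure D4:**
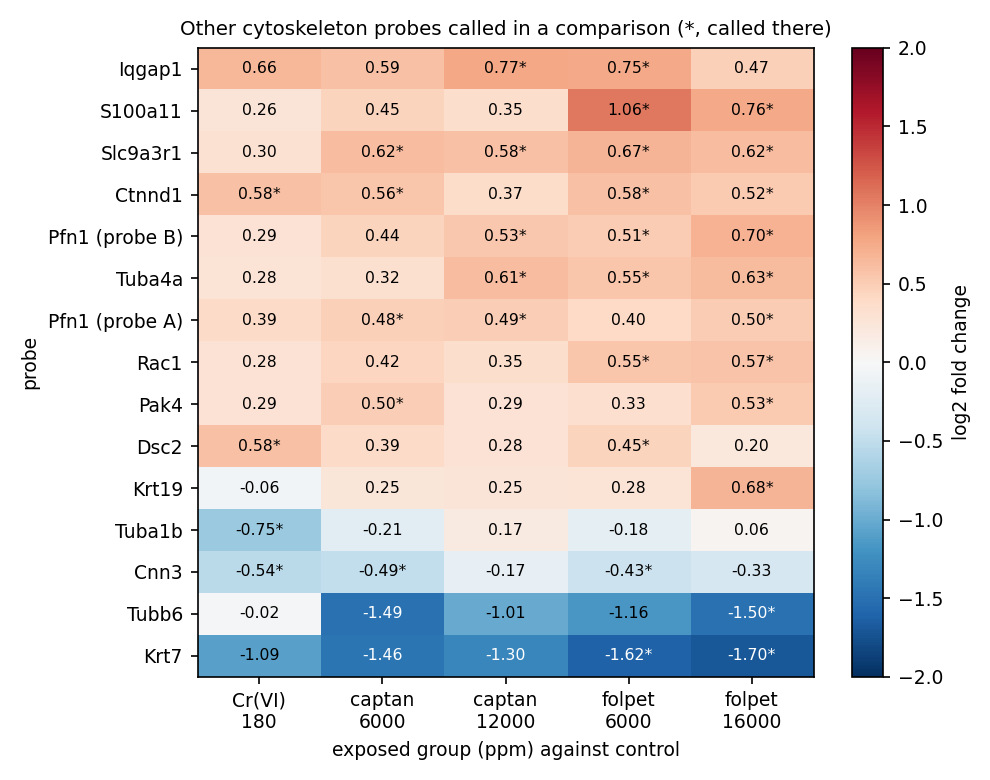
Log2 fold changes against control of the 15 other cytoskeleton probes called in at least 1 comparison, with an asterisk where called. Probes with rises outnumber those with falls, as they do over all tested probes in each fungicide group. No row has an asterisk in all 5 columns.

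Over 40 libraries, their deviations from group means on the log2 CPM scale had Pearson correlations of 0.42 for Tubb2a with Krt8, 0.20 for Krt8 with Capg and 0.10 for Tubb2a with Capg. Spearman correlations were 0.35, 0.29 and 0.42. The Tubb2a and Capg value rested on few libraries, since r was 0.21 without the 2 libraries farthest from the Tubb2a median and 0.30 in the 33 libraries at or below 50% acinar. The probes most like Krt8 were Tpi1, a glycolytic enzyme, with r = 0.82 over levels, Pfn1 with 0.81 and Tax1bp3 with 0.80. Over deviations they were Pfn1 with 0.66, Rac1 with 0.64 and Atp6v0b, a proton pump subunit, with 0.62. For Capg they were Snx7, a sorting nexin, with 0.82 over levels and 0.69 over deviations, Abcc5, a transporter, with 0.76 and 0.80, and Nedd8, a ubiquitin-like protein, with 0.75 and 0.71. Abcc5 and Nedd8 had their only count of 0 in control 2, where Capg had its own. The Spearman correlations of Nedd8 with Capg were only 0.21 over levels and 0.26 over deviations, against 0.43 and 0.68 for Abcc5 and 0.56 and 0.53 for Snx7. For Tubb2a they were Oasl1 with 0.89, Bhlhe40 with 0.89 and Sat1 with 0.87 over levels, and Oasl1, Cgrrf1 and Hsd17b12 with 0.86 each over deviations. All 5 had their only count of 0 in control 5, as did Tubb2a. In the 33 libraries at or below 50% acinar, which leave out control 5, their correlations with Tubb2a were 0.52, 0.54 and 0.45 over levels and 0.70, 0.71 and 0.68 over deviations.

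Some markers of other cell types were called against control as well. Of 19 enterocyte markers listed, 4 were measured, and of these, Fabp2, Fabp1, Apoa1 and Apoc3, none was at 0 in any library. Their summed level ran from 17108 CPM to 60388 CPM in control, with control 5 lowest, and from 60083 CPM to 79827 CPM after Cr(VI), 55937 CPM to 79257 CPM at captan 6000 ppm, 60842 CPM to 87628 CPM at captan 12000 ppm, 44186 CPM to 97386 CPM at folpet 6000 ppm and 68758 CPM to 91239 CPM at folpet 16000 ppm. Of the 4, 2, 2, 3, 1 and 3 were called higher in that order. Apoa1 was among them in every comparison, and alone at folpet 6000 ppm. Of 7 smooth muscle probes, 1, 2, 2, 3 and 4 fell in the same order, and of 12 macrophage and dendritic cell probes, 0, 1, 1, 0 and 4 fell. Of 13 stroma and endothelium probes, 0, 2, 2, 1 and 3 fell, or 0%, 15.4%, 15.4%, 7.69% and 23.1%. Of 9 lymphocyte probes, 1 fell after Cr(VI) and 1 at folpet 16000 ppm, 11.1% each. Of 18 acinar probes, 1 fell at captan 12000 ppm and 1 at each folpet dose, 5.56% each. Of 4 goblet, Paneth, tuft and endocrine probes, 1 fell at folpet 6000 ppm. None of these rose. Of 19 proliferation probes, 3 fell after Cr(VI) and 1 at captan 6000 ppm. Their summed level ran from 556 CPM to 1040 CPM after Cr(VI), below the control range of 1042 CPM to 1496 CPM. Over all 2541 probes, 76, 35, 39, 41 and 119 fell in the order above, and 75, 96, 118, 117 and 201 rose. Single calls made 8.33% of the macrophage list at each captan dose and 5.26% of the proliferation list at captan 6000 ppm. These lay near the all-probe shares called, 5.16% at captan 6000 ppm and 6.18% at captan 12000 ppm. The summed level of the 7 smooth muscle probes ran from 2032 CPM to 3554 CPM in control and from 1302 CPM to 2951 CPM in the exposed groups, and that of the macrophage and dendritic cell probes from 1495 CPM to 3819 CPM in control and from 1462 CPM to 4920 CPM. The general epithelial markers, Krt19, Cldn7, Cdh1 and Krt18, summed to 6850 CPM to 14472 CPM in control and 8284 CPM to 15169 CPM in the exposed groups. That sum follows mainly Krt19, whose mean over all libraries was 8720 CPM, against 1260 CPM for Cldn7, 749 CPM for Cdh1 and 416 CPM for Krt18. The part of cell composition in the differences of Capg, Krt8 and Tubb2a was not tested.

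**Figure D5:**
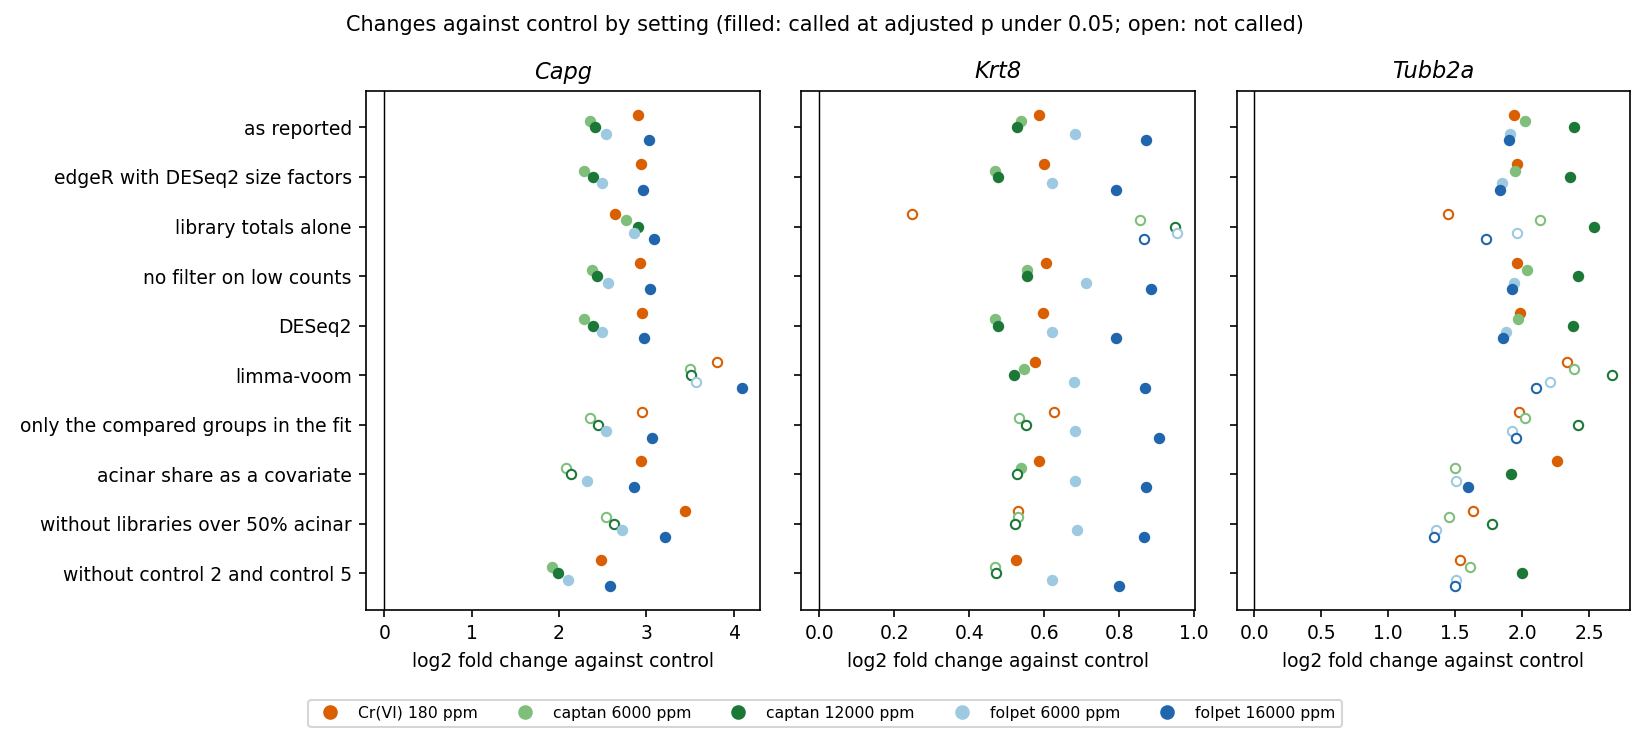
Log2 fold changes of the 3 genes against control under 10 settings, coloured by exposed group, filled where called. All lie above 0, and the Krt8 values move most with library totals alone.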

How the data were processed

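The authors deposited 1 table of raw counts, a whole number for each probe and library; neither its values nor its header show a normalization. Per the submitters' processing notes, the tools named are bcl2fastq 2.17.1.14 and Bowtie, with build mm9, without the step each served. Columns were matched to samples by title, and replicate numbers follow accession order. The analysis used R 4.3.3 and edgeR 4.0.16, with filterByExpr (minimum count 10, minimum total count 15), TMM scaling, and a robust quasi-likelihood fit with 1 mean per group over 40 libraries (34 residual degrees of freedom). Adjustment was over 2541 probes per comparison, with calls at 0.05. Log2 CPM used a prior count of 2. Standard errors are the log2 fold change over the square root of F, an approximation. The fit was tested on simulated counts.

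The members and lists were chosen with earlier results of these data known. Named genes are the members, in each cytoskeleton list and comparison with control the called genes (at most 3 rises and 3 falls), the 3 probes most correlated with each member over levels and over deviations, and the markers with the most counts. Alternatives used DESeq2 1.42.0, limma 3.58.1, other scalings and left-out libraries. Of all values, 28.5% were 0 and, of those above 0, 1.01% lay from 1 to 5; nothing here says whether the authors set low counts to 0, and if they did, the floors at 0 are no bounds. Floors cover counting error only, since amplified reads without molecular identifiers are not independent.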

Additional observations from a re-analysis of the deposited data

Results flagged for a closer look

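Of 18 groups of levels examined, one for each gene in each exposure group, 3 held a library far from the rest, all for Capg; chance flags about 1 in 20 groups. In control, replicate 2 lay at -1.26 log2 CPM, a count of 0, with its nearest neighbour at 4.204. After Cr(VI), replicate 6 lay at 8.51 log2 CPM with its nearest neighbour at 6.92. At folpet 6000 ppm, replicate 1 lay at 5.75 log2 CPM with its nearest neighbour at 6.69.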

How the results depend on the processing

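Against control, all 15 values of Capg, Krt8 and Tubb2a stayed above 0 in every alternative run. Of 15, edgeR called 15 with DESeq2's size factors and 15 without the filter, and DESeq2 called 15. The limma-voom fit called 6, of which 5 were of Krt8, 1 of Capg and 0 of Tubb2a. With library totals alone 6 were called, with a fit on the 2 compared groups alone 4 (0 of Tubb2a), with the acinar share as a covariate 10, without the libraries over 50% acinar 5 (0 of Tubb2a), and without control 2 and control 5 (chosen after seeing the data) 9. Leaving out 1 library at a time kept 165 of 180 calls; 13 of the 15 lost were of Tubb2a and 2 of Krt8. With library totals alone, the Krt8 log2 fold changes were 0.25 for Cr(VI), 0.86 and 0.95 for captan and 0.95 for folpet 6000 ppm. Among exposed groups, 0 of 414 values were called. The counts of other cytoskeleton probes called, 4, 5, 5, 10 and 11 for Cr(VI), captan 6000, captan 12000, folpet 6000 and folpet 16000 ppm, moved further. They were 0, 0, 0, 1 and 0 with library totals alone and 0, 0, 0, 1 and 6 with the compared groups alone. DESeq2 gave 8, 10 and 8 for the first 3, and limma-voom 3 for captan 12000 ppm. The acinar covariate gave 2, 0 and 3 for captan 6000, captan 12000 and folpet 6000 ppm, and leaving out libraries over 50% acinar gave 1, 0, 1 and 2 for the first 4. Without control 2 and control 5 the last 4 were 2, 1, 3 and 5. Leaving out 1 library gave 2 to 8 for captan 6000 ppm, 0 to 7 for captan 12000 ppm and 4 to 10 for folpet 6000 ppm, lowest without control 5 each time. The cause was not tested. No paired analysis was possible because replicate numbers only follow accession order.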
